A study of Mus musculus with 8 samples.

Results

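The mature miRNA repertoire of control LSK cells was described from 4 microarrays, 1 for each of 4 control mice, out of 8 arrays in the whole series. LSK cells are the bone marrow fraction that lacks lineage markers and carries c-Kit and Sca-1, and it holds the haematopoietic stem cells together with the earliest multipotent progenitors. The mice were C57BL/6 females aged 10 weeks, with floxed Tsc1 alleles and no Mx1-Cre transgene (Tsc1 f/f Mx1-Cre-, labelled Ctrl or WT). They had received pIpC, a double-stranded RNA analogue that induces interferon and with it the Mx1 promoter, in 7 injections of 400 µg given every other day, and their cells were collected 10 days after the last. The control cells had therefore met the same interferon stimulus as the Cre-positive mice of the series, which were not used here. The design text also names Raptor alleles, whereas the genotype labels name Tsc1 alone. All 433 names of the mature miRNA table were kept, with no filter on low values, and genotypes were not compared.

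A miRNA is a short RNA that is cut by Dicer from a hairpin precursor and loaded into an Argonaute protein, where it guides repression of messenger RNAs. Most of its target choice rests on bases 2 to 8 from the 5′ end, called the seed. Each hairpin can give a 5p and a 3p product, of which usually the more stable arm, once written without an asterisk, is retained. In blood formation, miR-223 is known as a myeloid miRNA, miR-150 as a miRNA of mature lymphocytes, miR-144 and miR-451 as erythroid miRNAs, and miR-125, miR-99, miR-126, miR-130a and miR-196b as miRNAs of stem and progenitor cells.

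The names on which the results turn are given by their mature sequences from RefSeq (GRCm38.p6), written 5′ to 3′ with the seed in capitals. The first set holds the 2 seed groups with the largest signal, those of miR-290 and of miR-92.
miR-290a-5p: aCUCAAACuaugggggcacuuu
miR-292a-5p: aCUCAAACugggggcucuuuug
miR-92a-3p: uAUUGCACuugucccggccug
miR-25-3p: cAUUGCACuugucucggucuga
miR-32-5p: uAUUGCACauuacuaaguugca
miR-363-3p: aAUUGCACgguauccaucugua

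The miR-17 family, shown because its members are near-identical and were measured by separate probes, shares another seed. It is followed by miR-18a and by both miR-19 products, which lie on the same transcripts but carry other seeds.
miR-17-5p: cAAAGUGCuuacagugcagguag
miR-20b-5p: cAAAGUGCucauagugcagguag
miR-20a-5p: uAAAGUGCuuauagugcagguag
miR-106b-5p: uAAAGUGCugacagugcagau
miR-106a-5p: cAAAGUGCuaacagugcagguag
miR-93-5p: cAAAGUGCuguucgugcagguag
miR-18a-5p: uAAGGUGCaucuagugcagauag
miR-19a-3p: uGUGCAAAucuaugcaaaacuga
miR-19b-3p: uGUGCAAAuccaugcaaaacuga

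The let-7 family shares its seed over 9 mature sequences.
let-7a-5p: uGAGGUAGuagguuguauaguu
let-7b-5p: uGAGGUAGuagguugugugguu
let-7c-5p: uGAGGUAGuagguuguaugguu
let-7d-5p: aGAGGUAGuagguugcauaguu
let-7e-5p: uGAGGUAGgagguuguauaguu
let-7f-5p: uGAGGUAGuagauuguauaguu
let-7g-5p: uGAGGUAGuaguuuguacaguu
let-7i-5p: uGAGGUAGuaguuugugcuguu
miR-98-5p: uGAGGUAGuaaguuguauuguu

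The last set holds the miR-26 and miR-181 groups and the other matched names among the 20 brightest.
miR-26b-5p: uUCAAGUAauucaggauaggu
miR-26a-5p: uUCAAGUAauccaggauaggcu
miR-181b-5p: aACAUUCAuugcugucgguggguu
miR-181a-5p: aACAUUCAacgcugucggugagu
miR-181c-5p: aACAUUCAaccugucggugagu
miR-181a-1-3p: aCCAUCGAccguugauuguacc
miR-223-3p: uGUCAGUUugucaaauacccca
miR-329-3p: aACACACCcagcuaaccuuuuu
miR-494-3p: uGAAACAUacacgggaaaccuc
miR-690: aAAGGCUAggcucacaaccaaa
miR-700-3p: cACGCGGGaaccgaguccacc
miR-191-5p: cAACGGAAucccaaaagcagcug
miR-615-3p: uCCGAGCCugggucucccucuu
Of the 20 brightest names 17 were matched to a sequence, and miR-689, miR-709 and miR-714 were not. The array used old names without an arm for many products, and the arm of 69 of the 81 matched names called above background was assigned by hand from the usual main product.

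The summed intensity over all 521 probes was 54804276, 63876718, 46277078 and 42134011 units in Ctrl 1 to Ctrl 4. The shares of summed intensity given below use instead the sum over names, with the probes of a name averaged. The median name had 35230, 35284.5, 26769 and 27194 units. These units are the intensities as deposited, and precision is limited by how many arrays there were. Most names lay close to the median of their array: between 60.5% and 64.2% of names were within 0.5 log2 units of it. The median exceeded the mode of the log2 values by 0.08 to 0.11, and the median served as the level of names with little signal of their own. In what follows, a level is log2(intensity + 1) minus the array median, and a level of 0 is the median name.

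LSK cells had a minority of names with clear signal. By limma's moderated test with Benjamini-Hochberg adjustment over all 433 names, 101 names were called above the array median (23.3% of names), each with an adjusted p under 0.05 and a mean of at least 1 log2 unit over the 4 mice. None was called below it (0% of names). At an unadjusted p under 0.05, 1 name had a mean at least 1 unit below the median, and it was miR-449. Of the 101 names, 42 had mean levels between 1 and 2, 25 between 2 and 3, 18 between 3 and 4, 11 between 4 and 5, and 5 above 5. On all 4 arrays, 78 names were at least 1 unit above the median, and 311 were so on no array.

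The limit of 1 unit fell on a gradual slope. Just outside it lay miR-484 at 0.99, miR-196a-2 at 0.98, miR-467b at 0.93 and miR-669b at 0.91, and 6 called names had means within 0.1 units above the limit, among them let-7f-1 at 1.01 and miR-146b at 1.02. miR-146, the name for miR-146a, a feedback inhibitor of innate immune signalling, averaged 1.20 but varied so much between mice (1.07, 2.06, 1.51 and 0.17) that it was not called (adjusted p = 0.0543 by limma). Among the 332 names not called, 292 (88.0%) had means within 0.5 units of the median, 27 lay between 0.5 and 1 above it and 12 more than 0.5 below it. Some calls near the limit did not hold when 1 mouse was left out. miR-341 was not called when any 1 mouse was left out; miR-668 was lost without Ctrl 1, 2 or 4, let-7f-2 without Ctrl 1, 2 or 3, let-7f-1 without Ctrl 1 or 2, and miR-146b and miR-99b without Ctrl 2 or 3. miR-10a-1, miR-15a and miR-123 were lost without Ctrl 1, and miR-15b without Ctrl 2.

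**Figure D1:**
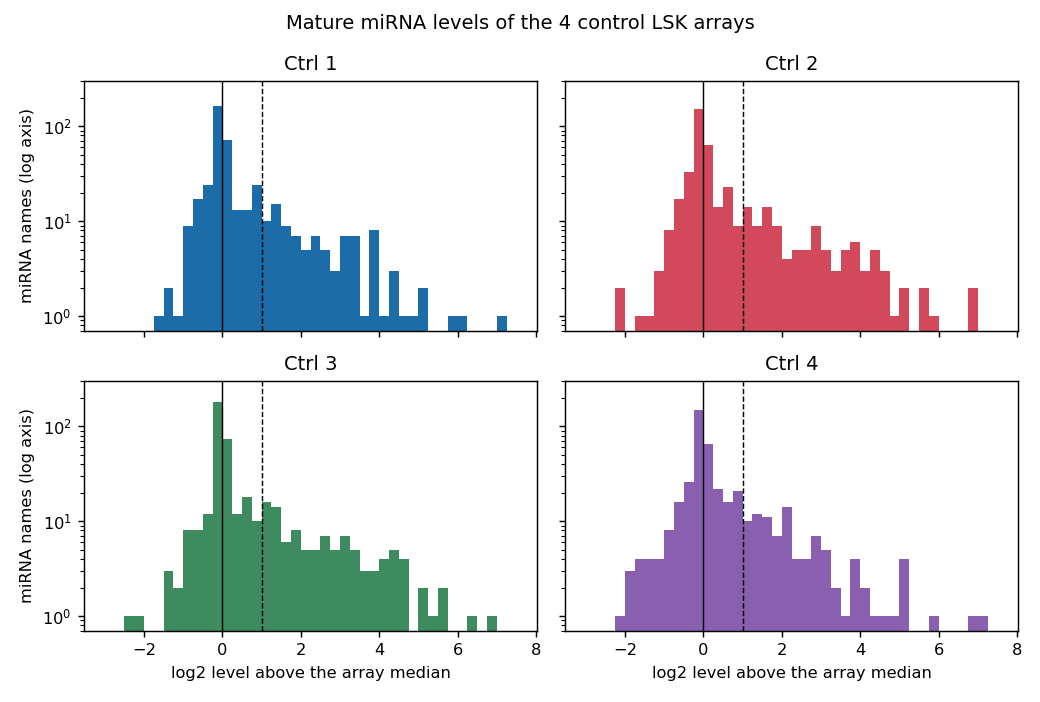
Number of miRNA names (log axis, bins of 0.25) against the log2 level above the array median, 1 panel for each of the 4 Ctrl mice; the solid line marks the median and the dashed line 1 log2 unit above it. Most names form a narrow peak at the median, and 95, 107, 104 and 93 names lie at least 1 unit above it in Ctrl 1 to Ctrl 4.

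The brightest name was miR-290, whose cluster is best known from embryonic stem cells. Its intensity was 5171232, 4269799, 3261285 and 3350913.5 units in Ctrl 1 to Ctrl 4, and its levels were 7.20, 6.92, 6.93 and 6.95. It was ranked 1 on 3 arrays and 2 on Ctrl 4. Its mean of 7.00 ± 0.13 (SD, n = 4) corresponded to 128 times the median name, with an adjusted p of 1e-05 by limma. This compares probe signals and not molecules. Of the 11 mapped names of its cluster only miR-290 and miR-292-5p (1.58) were called. miR-294 (-0.59) and miR-295 (-0.23), for example, were not. The part of longer RNAs in the miR-290 signal was not tested.

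miR-92, a product of the miR-17-92 oncogenic cluster and of its X-linked paralogue, was read by 2 probe names that share 1 mature sequence. miR-92-1 had levels of 6.03, 6.79, 6.40 and 5.97, and miR-92-2 had 5.20, 5.56, 5.70 and 4.92. The probe of miR-92-1 was the higher on every array. miR-329, from the imprinted Dlk1-Dio3 region, followed with 5.81, 5.80, 5.34 and 5.14.

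The myeloid miR-223 had levels of 5.10, 5.51, 4.73 and 4.41. Its mean of 4.94 ± 0.47 (SD, n = 4) was the highest of the haematopoietic list. miR-181b-2, a member of a family that tunes lymphocyte development, had 4.21, 4.94, 5.09 and 3.75. miR-26b, which with miR-26a forms a family known to restrain growth, had 4.26, 5.00, 4.57 and 4.10. All of these lay at least 3.75 units above the median in every mouse. The rest of the 20 brightest were miR-17-5p at a mean level of 4.41, miR-20b at 4.31, miR-700 at 4.17, miR-191 at 4.04, miR-213 (the 3p product of miR-181a-1) at 3.80, miR-615 at 3.80, miR-26a-2 at 3.78 and let-7a-2 at 3.73, beside the names described next.

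Names that were cloned late from mouse tissue were prominent among the brightest. miR-689 had levels of 4.86, 4.61, 4.66 and 4.69, miR-690 had 4.66, 4.40, 4.28 and 5.19, and miR-714 had 3.27, 4.45, 4.28 and 5.14. The first of these varied by an SD of 0.10, among the smallest of all called names, whereas miR-714 varied by 0.77. miR-689 was also the name whose 3 probes differed most, by 2.22 units between means of 5.68 and 3.46, so its level depends on the probe read. Of the 43 names in the miR-680 to miR-721 range, 11 were above the median (25.6%, against 23.3% of all names), and the median of the range was -0.06, the same as over all names. Besides the 5 among the 20 brightest, miR-720, a name later treated as a transfer RNA fragment, was at 3.32 and miR-712-5p, which maps to the ribosomal RNA precursor, at 2.68. The labelling primer was a random octamer, which can prime on any RNA, and the part of longer RNAs in these signals was not tested.

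Of the called names, miR-494 and miR-709 had the largest SD over mice. miR-494, a Dlk1-Dio3 miRNA, had levels of 3.76, 3.69, 5.65 and 7.05 in Ctrl 1 to Ctrl 4, and was ranked 19, 28, 4 and 1. miR-709 had 3.40, 3.49, 5.19 and 5.18. Ctrl 3 and Ctrl 4 were high and Ctrl 1 and Ctrl 2 low for both names, with no overlap. The mean of Ctrl 3 and Ctrl 4 exceeded that of Ctrl 1 and Ctrl 2 by 2.63 units for miR-494, by 1.74 for miR-709 and by 1.00 for miR-341, and by at least 1 for no other called name. The split was made after the values were seen and was not tested. Of the called names 73 were lower and 28 higher in Ctrl 3 and Ctrl 4, with no name lower by 1 unit or more. The other called names with the largest SDs were miR-25 (0.77), miR-714 (0.77) and miR-26a-1 (0.77).

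**Figure D2:**
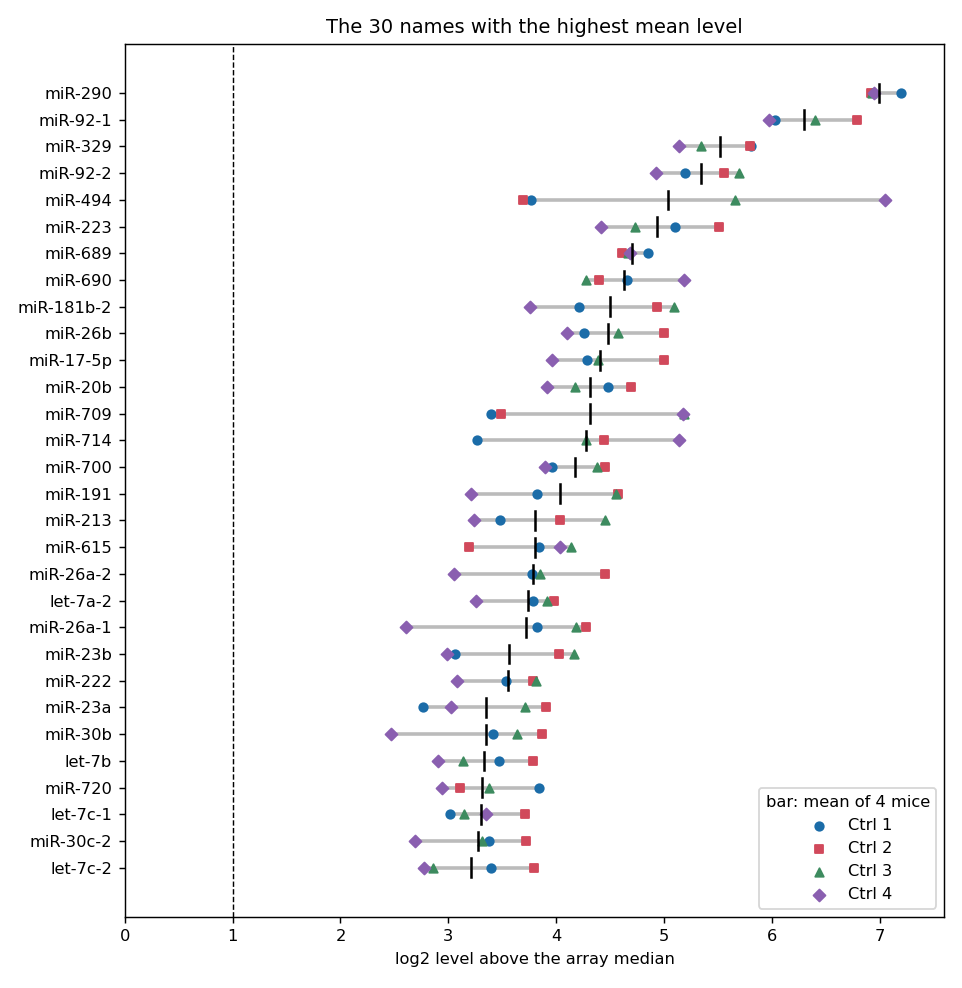
Log2 level above the array median of the 30 names with the highest mean, ordered by that mean; points are the 4 Ctrl mice, grey lines their range, black bars the means, and the dashed line the limit of 1. miR-290 has the highest mean, 7.00, with a range of 6.92 to 7.20, and miR-494 spans 3.69 to 7.05.

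Signal was concentrated in few names. miR-290 alone held 9.20% ± 1.50 of the summed intensity (SD, n = 4), the 10 brightest names 34.7% ± 2.29, the 20 brightest 47.5% ± 2.32 and the 101 called names 76.0% ± 1.63. Since most names lay near the mode of their array, the share was also taken after subtracting that mode from every value. The 20 brightest then held 63.7% ± 3.99 and the called names 95.6% ± 0.36. After this subtraction, 11, 13, 13 and 8 names made up 50% of the signal in Ctrl 1 to Ctrl 4, and 66, 66, 62 and 63 names made up 90%. Ctrl 4 needed the fewest names for 50%, and there miR-494 held 10.0% of the summed intensity as deposited, against 1.04%, 0.84% and 3.44% in Ctrl 1 to Ctrl 3. Probes differ in affinity, so these are shares of signal and not of molecules.

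Grouped by seed, the matched names fell into 208 groups, of which 43 held a called name. The 5 groups with the most signal after subtraction held 26 names and together 32.9% ± 1.59 of the summed intensity (SD, n = 4), or 43.1% ± 2.69 after subtraction. Names that share 1 mature sequence were counted separately in these shares. The miR-92 seed, AUUGCAC, held 9.66% ± 1.87 over its 5 names, of which 4 were called. This counts 1 mature sequence under 2 names, miR-92-1 with 5.69% and miR-92-2 with 2.93%. miR-25 had a mean level of 3.18 and miR-32 of 1.88, while miR-363 was at -0.15. The miR-290 seed, CUCAAAC, held 9.42% ± 1.55, almost all of it from miR-290, since miR-292-5p was at 1.58. The let-7 seed held 5.25% ± 0.68, the miR-17 seed 4.75% ± 0.97, and the seed of miR-494, a group of 1 name, 3.83% ± 4.28. The place of miR-494 rested on Ctrl 4, which held 10.0%. Without Ctrl 4 its share was 1.77%, its seed was ranked 9, and the miR-26 seed, at 4.08%, took its place among the first 5.

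The let-7 family, whose members promote differentiation and repress growth genes, was above the median in 11 of 13 names (84.6%, against 23.3% of all names), with a median level of 2.46. let-7a-2 had levels of 3.79, 3.98, 3.92 and 3.26, let-7b had 3.47, 3.79, 3.14 and 2.91, and let-7c-1 had 3.02, 3.71, 3.14 and 3.35. let-7d-5p at a mean of 2.58 and let-7i at 2.46 came next. A lower tier held let-7e at 1.29, let-7g at 1.25, let-7f-2 at 1.10 and let-7f-1 at 1.01, although let-7e and let-7f differ from let-7a at 1 position of 22. The exceptions were let-7d*-3p at 0.89 and miR-98 at -0.43, which had levels of -1.36, 0.19, -0.62 and 0.07 and differs from let-7a at 2 positions.

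The miR-17 clusters and paralogues, which promote proliferation and survival of blood progenitors, were above the median in 9 of 14 names (64.3%, against 23.3% of all names), with a median of 2.53. miR-17-5p had levels of 4.28, 5.00, 4.38 and 3.96 and miR-20b had 4.48, 4.70, 4.17 and 3.91, and the pair overlapped. miR-20a had 3.08, 3.33, 3.24 and 2.20. All 6 names of the miR-17 seed were called, with miR-106b at a mean of 2.55, miR-106a at 2.51 and miR-93 at 2.26. miR-106a differs from miR-17-5p at 1 position of 23, and its level was 1.90 ± 0.15 units lower (SD, n = 4). Cross-hybridisation between such near-identical sequences was not tested. In contrast, miR-19a (0.05), miR-19b-1 (-0.13) and miR-19b-2 (-0.01), which share a further seed of these clusters, stayed near the median. The miR-92 names and miR-18 carry other seeds again. miR-92-1 was at 6.30, miR-92-2 at 5.34 and miR-18 at -0.15.

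Other growth-linked and housekeeping families are set against the 23.3% of all names called. All 3 names of miR-26 were called, with a median of 3.78, as were all 3 of miR-103 and miR-107, with a median of 2.37, and both miR-222 (3.55) and miR-221 (2.71), which target Kit and cell cycle inhibitors. All 6 names of the miR-15 and miR-16 family, which restrains Bcl2 and cyclins, were called, but at lower levels between 1.05 for miR-15b and 2.08 for miR-16-1. Of 8 miR-30 names 5 were called, led by miR-30b at 3.35, miR-30c-2 at 3.27 and miR-30d at 3.15; miR-30e-5p was at -0.94 ± 1.11 (SD, n = 4). The miR-23, miR-27 and miR-24 list had 4 of 6 names called, with miR-23b at 3.56, miR-23a at 3.35, miR-24-1-3p at 1.65 and miR-27a at 1.21, and with miR-27b at 0.19. miR-29, which targets collagens and DNA methyltransferases, had 3 of 5 names called, miR-29a at 1.42, miR-29b-2 at 1.33 and miR-29c at 1.13.

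Most names of the haematopoietic list, drawn up for blood cells, the labelled tissue, were above the median. The list is not limited to blood-specific names. It holds miR-191 and miR-16, and miR-16 also stands above among the growth-linked and housekeeping families. Of 12 haematopoietic names, 9 were called (75%, against 23.3% of all names), with a median of 2.02. Besides miR-223, miR-191 was at 4.04, miR-181a-5p at 2.59 and 2.24 under its 2 probe names, miR-16-1 at 2.08, miR-142-5p at 2.07, and miR-155, a miRNA of activated immune cells, at 1.97. The lymphocyte miRNA miR-150 had 1.52, 1.57, 1.61 and 0.87 and was called (adjusted p = 0.00318 by limma). The 3 haematopoietic names not called were miR-142-3p at -0.08 and the miR-181a*-3p probes, both at -0.02. The sorted fraction lacks lineage markers, and whether miR-223 and miR-150 signal came from the LSK cells or from remaining mature cells was not tested. In RNA from a whole sorted fraction, fewer cells with a miRNA and less of it per cell cannot be told apart.

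Of 13 names of stem and progenitor cells 5 were called (38.5%, against 23.3% of all names), with a median of 0.80. They were miR-130a at 2.62, miR-10a-1 and miR-10a both at 1.47, and the 5p product of miR-126 at 1.47 and 1.27 under its 2 probe names. The 3p product of miR-126, in the same list, was at 0.19 and was not called. The 5 calls thus count the products of miR-10a and miR-126 under 2 names each. The names not called hold repeats as well, with 3 names of the miR-125b sequence. The miR-125, miR-99 and miR-100 list had 1 of 7 names called (14.3%, against 23.3% of all names). It was miR-99b at 1.02, whose call was lost without Ctrl 2 or Ctrl 3, with miR-125b-1 at 0.87, miR-125b-2 at 0.80, miR-100 at 0.70 and miR-99a at 0.60. miR-125b-1 and miR-125b-2 thus lay above the median without reaching 1 unit. A further name of the same mature sequence, miR-125b, was at 0.33 ± 0.78 (SD, n = 4), so the reading for this sequence depends on the probe name. miR-125a, which in mouse expands stem cells, was at -0.17 ± 0.55 (SD, n = 4). Among miRNAs encoded in the Hox clusters, 3 of 8 names were called (37.5%, against 23.3% of all names), miR-615 at 3.80 and both miR-10a names, which share 1 mature sequence, while miR-10b was at 0.46 and miR-196b at -0.15 ± 1.07 (SD, n = 4). miR-615 had levels of 3.84, 3.19, 4.13 and 4.03 and stood more than 2 units above the other names of its list.

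Of 14 names that respond to inflammation 3 were called (21.4%, against 23.3% of all names): miR-155 at 1.97, miR-21 at 1.32 and miR-146b at 1.02. miR-155 had levels of 1.70, 2.60, 2.23 and 1.34, and miR-21 had 1.26, 1.83, 1.48 and 0.72. Ctrl 2 was the highest and Ctrl 4 the lowest for both, as for miR-146. This was not particular to the list: of all 101 called names, Ctrl 2 gave the highest level for 55 and Ctrl 4 the lowest for 63. All 4 mice had been given pIpC, so a level without that stimulus was not measured. miR-132 was at 0.09, miR-212 at 0.77 and, of the miR-9 names, miR-9-3-5p was the highest at 0.86.

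Most listed markers of other cells were near the median. None of 3 erythroid names was called (0%, against 23.3% of all names): miR-144 was at -0.09 ± 0.06, miR-451 at -0.15 ± 0.24 and miR-486 at -0.29 ± 0.93 (SD, n = 4 each). None of 9 names of the stromal or endothelial list was called (0%, against 23.3% of all names), with a range from -0.30 for miR-199a-5p to -0.02 for miR-199b. miR-126, which is also known from endothelium, stood in the stem and progenitor list, where both of its 5p names were called, and the part of endothelial cells in its signal was not tested. Of 39 names of muscle, liver, brain, epithelium and pancreas 1 was called (2.56%, against 23.3% of all names), with a median of -0.10. The exception within the list was miR-375, known from pancreatic islets, with 1.34, 1.23, 1.52 and 1.80. The list was chosen with earlier results of these data known and may not hold every miRNA of these tissues. Outside it, miR-7-2 (2.16) and miR-138-2 (1.14) were called. Their relatives miR-7-1 (-0.30), miR-7b (0.18), miR-138 (0.24) and miR-138-1 (0.16) were not. The liver miRNA miR-122a was at -0.71 ± 1.01 (SD, n = 4), and the muscle miRNAs miR-1 and miR-206 were at 0.12 and -0.45.

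**Figure D3:**
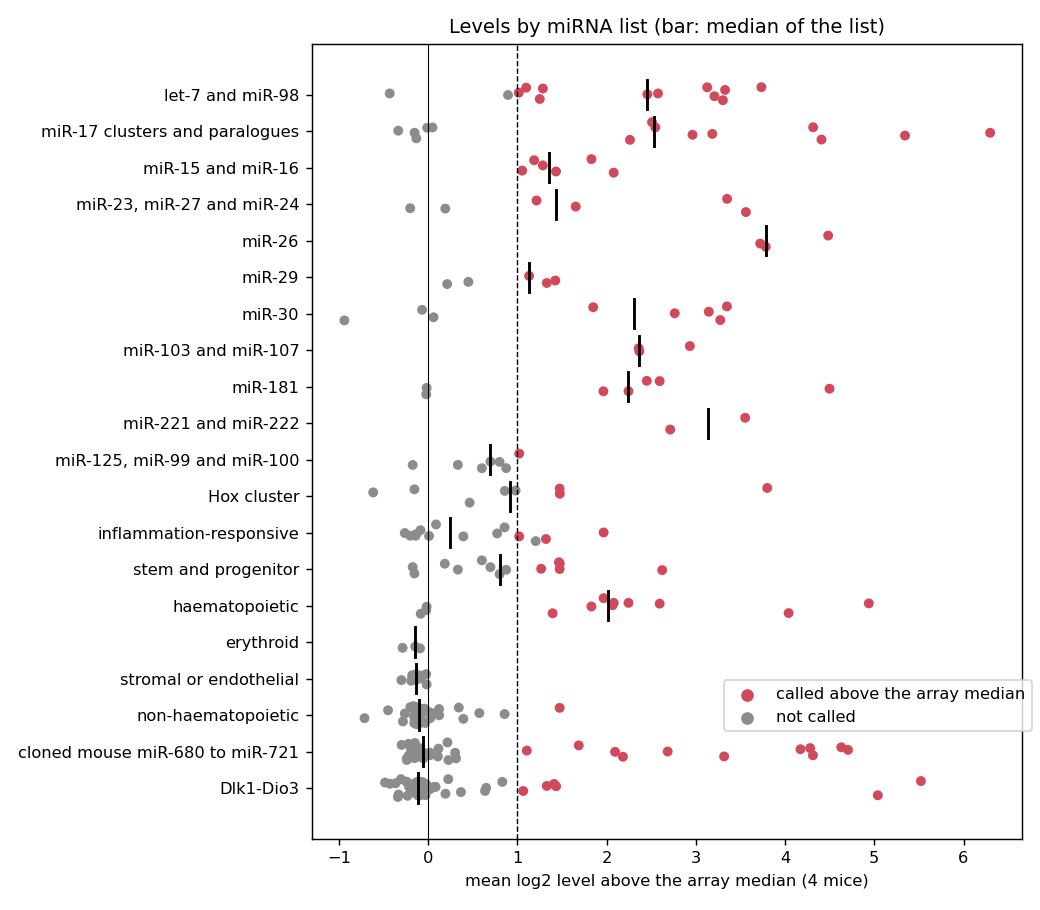
Mean log2 level above the array median over the 4 Ctrl mice for every name of each list, with names called above the median in red, others in grey, the median of each list as a black bar and the dashed line at 1; some names belong to more than 1 list. All 3 miR-26 names lie above 3.7, and the erythroid and stromal or endothelial names all lie below 0.

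The lowest names were miR-449 at -1.08 ± 0.85, miR-30e-5p at -0.94 ± 1.11, miR-326 at -0.85, miR-122a at -0.71 and miR-202 at -0.62. miR-449, a miRNA of multiciliated epithelium, had levels of -0.43, -0.38, -2.17 and -1.34. The means of these names rest on mice that fell far below the median while others stayed near it, and a level below the median of mostly silent probes cannot be read as an abundance.

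The Dlk1-Dio3 region, an imprinted domain expressed from the maternal chromosome, had 6 of 49 names called (12.2%, against 23.3% of all names), with a median of -0.11. miR-329 and miR-494 stood at 5.52 and 5.04, and the others were miR-679 at 1.43, miR-667 at 1.41, miR-341 at 1.33 and miR-668 at 1.07. The nearest mapped names before miR-329 were miR-323 at -0.21 and miR-758 at -0.16, and those after miR-494 were miR-679, which was called, miR-543 at 0.37 and miR-495 at -0.11. In GRCm38.p6, miR-329-3p lies at chr12:109713541-109713562 and miR-494-3p at chr12:109715367-109715388, both on the plus strand.

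Unequal signal within a cluster was common. Names whose mature sequences lay within 10 kb of each other on the same strand formed 36 clusters, of which 9 had all names called, 14 some and 13 none. Both arms of a hairpin and repeated names of 1 sequence counted as members. The cluster of let-7a-1, let-7d and let-7f-1, for example, had some names called only because let-7d*-3p, an arm of let-7d, was not. In the miR-17-92 cluster (chr14:115043684-115044496, plus strand), miR-17-5p, miR-20a and miR-92-1 were called, and miR-18 (-0.15), miR-19a and miR-19b-1 were not. On the X chromosome (chrX:52741697-52742563, minus strand) miR-92-2, miR-20b and miR-106a were called, and miR-19b-2 and miR-363 were not. In both clusters a miR-92 name and names of the miR-17 seed were above the median and the miR-19 names were near it. In the miR-290 cluster (chr7:3218639-3220837, plus strand) 2 of 11 mapped names were called, against 23.3% of all names. They were miR-290 at 7.00 and miR-292-5p at 1.58, while miR-293 was at 0.63, miR-294 at -0.59 and miR-295 at -0.23. The 11 count miR-291a-5p and miR-291a-3p under 2 names each. miR-292-3p, of the same cluster but not matched to a sequence, was called at 2.09. Clusters with all names called included miR-25, miR-93 and miR-106b, miR-221 and miR-222, and let-7b with let-7c-2. The probes of a cluster differ in sequence, so these values compare probe signals.

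The 2 arms of a hairpin were compared in 49 pairs on the same arrays. By limma on the difference, 5p minus 3p, 14 pairs differed (28.6% of pairs; adjusted p under 0.05 over the 49), 11 with the higher 5p arm and 3 with the higher 3p arm. All 11 pairs with at least 1 arm above the median differed, a count that the choice of pairs with a bright arm favours, and so did 3 of the 38 pairs with neither arm above it. Of those 38, 32 had a mean difference within 0.5 units. Each difference compares the signals of different probes, and probe names of 1 mature sequence differed by up to 2.53 units in these arrays (miR-181b). Where the lower arm was not above the median, its own level was not measured, so the size of the difference gives neither the ratio of the arms nor a bound on it.

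Within these limits, miR-17 had the widest gap between its probes. Its 5p arm had a mean level of 4.41 and its 3p arm of -0.34, and the differences were 5.01, 5.13, 4.89 and 3.95 in Ctrl 1 to Ctrl 4, on average 4.74 ± 0.54 (SD, n = 4; limma adjusted p = 0.000301). The mean difference of miR-712 was 2.83 ± 0.19 and that of miR-30a 1.92 ± 0.38. For miR-142, whose hairpin is specific to blood cells, the 5p arm was at 2.07 and the 3p arm at -0.08, with differences of 1.90, 2.33, 2.35 and 2.02 (limma adjusted p = 0.000301). In each of these pairs the 5p arm was the higher in all 4 mice, and the 3p arm was not called above the median.

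For let-7d the 5p arm was called at 2.58 and the 3p arm, at 0.89, was not, and the difference was 1.68 ± 0.35 (SD, n = 4). The 5p product of miR-126, once written with an asterisk, was at 1.47 and 1.27 under its probe names and its 3p product at 0.19, with differences of 1.28 ± 0.43 and 1.08 ± 0.28. miR-24-1 ran the other way, with its 5p arm at -0.20 and its 3p arm at 1.65, and differences of -1.97, -2.38, -1.85 and -1.23 (limma adjusted p = 0.00276). miR-292 was the single pair with both arms called, at 1.58 for 5p and 2.09 for 3p, a difference of -0.51 ± 0.23 (limma adjusted p = 0.0252). For miR-30e the differences were 0.09, -0.71, -2.35 and -1.02, and the pair was not called (limma adjusted p = 0.184). The direction for miR-181a depended on the probe read. Against the probes named miR-181a*-3p, both at -0.02, its 5p names were higher by 2.61 ± 0.47 and 2.27 ± 0.57 (SD, n = 4 each) and make up 2 of the 11 pairs with the higher 5p arm. Against miR-213, the old name of the 3p product of miR-181a-1, at 3.80, the differences 5p minus 3p were -1.21 ± 0.14 and -1.56 ± 0.25, and 5p was the lower in all 4 mice. This second comparison was chosen after the values were seen and was not tested.

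**Figure D4:**
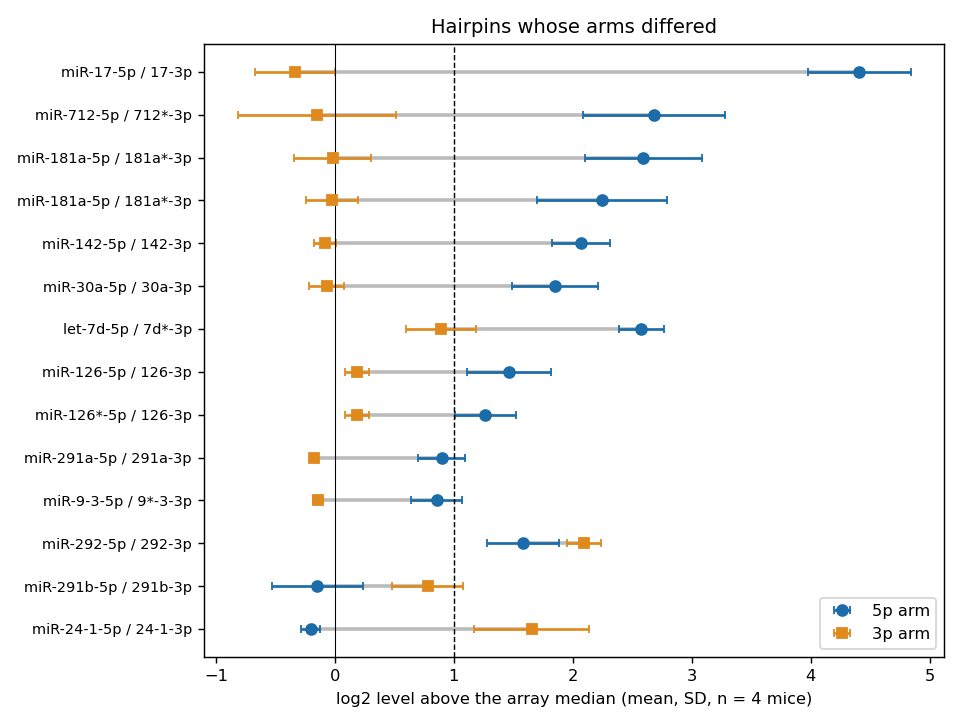
Mean log2 level above the array median of the 5p arm (blue circles) and the 3p arm (orange squares) for the 14 hairpin pairs whose arms differed, with SD over the 4 Ctrl mice, ordered by the difference 5p minus 3p; miR-181a and miR-126 each appear under 2 probe names, miR-213 is not drawn, and the dashed line is at 1. miR-17 shows the widest gap, with 4.41 for 5p and -0.34 for 3p.

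Probe names that share 1 mature sequence give a check on how far a probe's level can be read. Some of them stand for separate genomic copies, and others, such as miR-10a and miR-10a-1, for the same locus. There were 31 groups of names that share a mature sequence: 11 had all names called, 3 some and 17 none. In the 14 groups with a called name, the highest and lowest means differed by a median of 0.43 units. let-7c-1 and let-7c-2 differed by 0.10, miR-26a-2 and miR-26a-1 by 0.06, and miR-103-1 and miR-103-2 by 0.01. These gaps were smaller than their SD over mice. In 3 groups the gap was 1 unit or more. miR-181b-2 exceeded miR-181b-1 by 2.53 ± 0.38, miR-7-2 exceeded miR-7-1 by 2.46 ± 0.41 and miR-29b-2 exceeded miR-29b by 1.12 ± 0.10 (SD, n = 4 each). The gap for miR-181b was between 2.23 and 3.07 over the 4 arrays. miR-92-1 exceeded miR-92-2 by 0.95 ± 0.23 and let-7a-2 exceeded let-7a-1 by 0.61 ± 0.18. Differences of up to 2.53 units between names thus occurred for 1 mature sequence, and the rank of a name carries this uncertainty. Probe sequences were not used here.

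Probes of exactly the same name were compared as well. Of 43 names with several probes, 11 were called, against 23.3% of all names, and the means of their probes spanned a median of 0.14 units over all 43. The widest after miR-689 were miR-9-3-5p (1.57), miR-192 (0.99), miR-17-3p (0.83) and let-7d-5p (0.61). The 3 probes of miR-17-5p lay within 0.04 units.

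**Figure D5:**
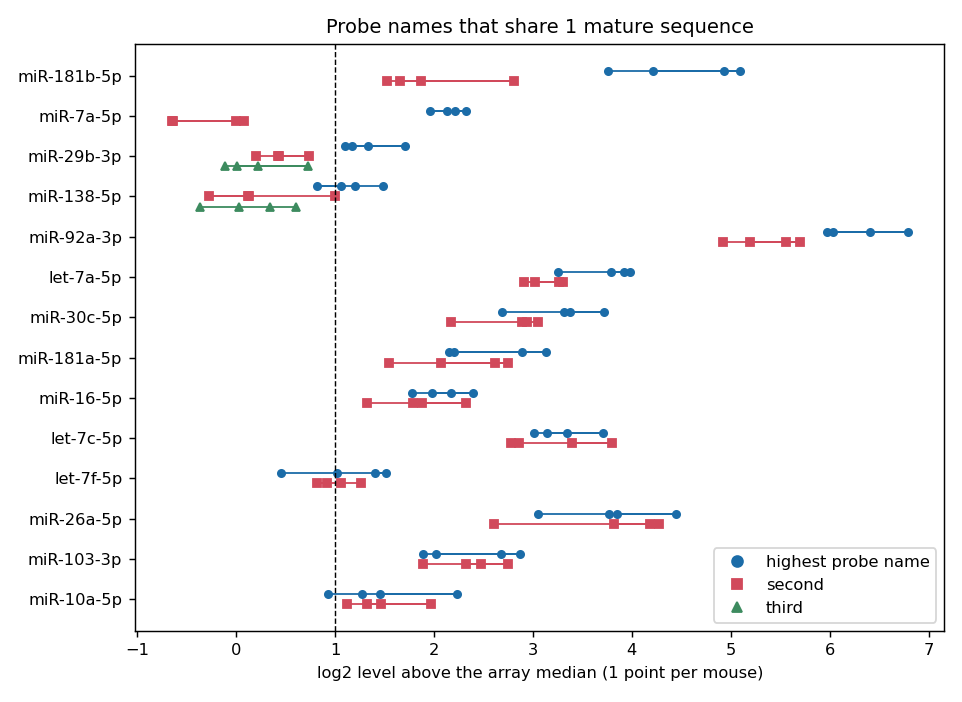
Log2 level above the array median of probe names that share 1 mature sequence, for the 14 sequences with a called name; each point is 1 of the 4 Ctrl mice and each line a name's range, with the name of highest mean in blue circles, the next in red squares and the next in green triangles. The names of miR-181b-5p do not overlap, and those of miR-10a-5p overlap.

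The 4 arrays ordered the names in a similar way. Across all 433 names, Pearson's r between arrays was 0.892 to 0.947 over the 6 pairs, and Spearman's rho was 0.643 to 0.729, as a description across names that share the same arrays. Among the 101 called names r was 0.826 to 0.950, and among the 332 others 0.199 to 0.456. Both pairs below 0.9 over all names involved Ctrl 4. Of the 20 brightest names of each array, 12 were shared by all 4 arrays and 27 appeared on at least 1. Ctrl 2 gave the highest level for 55 of the 101 called names and Ctrl 4 the lowest for 63; the median level of the called names was 2.15, 2.60, 2.47 and 2.08 in Ctrl 1 to Ctrl 4. The median SD over mice was 0.40 units for called names and 0.16 for the others.

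Called and other sequences were alike in base composition. Over 270 distinct mature sequences the median GC content was 45.5% for the 70 called and 45.5% for the 200 not called, with a Spearman's rho of -0.02 between GC content and level. The median length was 22 bases in both, with a rho of 0.17 between length and level.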

How the data were processed

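Mature miRNAs were measured in LSK cells of 8 mice, of which the 4 Ctrl arrays were used. Per the labels' protocols, TRIzol RNA (5 µg) was labelled by reverse transcription from a 5′-biotin random octamer, stained with streptavidin-Alexa647 and scanned on an Axon 4000B. The authors deposited 1-colour linear intensity values, which a comment in the file calls normalized; no source used here gives the scaling, background correction or filters. The series' own table held the same values (0 cells differed). The labels call the samples biological replicates, 1 array per mouse.

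From these, log2(intensity + 1) was taken, the 521 probes were averaged to 433 names, and each array's median was subtracted. limma 3.58.1 (R 4.3.3) fitted an intercept per name (lmFit, eBayes), and per arm pair on the difference 5p minus 3p, with Benjamini-Hochberg adjustment over all names or pairs. Means of linear intensity gave shares of signal. RefSeq mature sequences (GRCm38.p6) were matched to 315 names, 204 of them with the arm assigned by hand; 118 had no match.

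The names given are the 20 brightest, the 5 lowest, up to 4 of the highest and 2 of the lowest per list, the 10 largest arm differences and all pairs of listed families, the 5 largest SDs, the 5 names with the widest probe differences, and copies of 1 sequence; others were chosen after their values were seen. The members and lists were chosen with earlier results of these data known. Alternatives were the baseline, normalization, pseudocount, probe choice, prior variance, filter and leaving out each mouse. The number of arrays, 4, limits the precision.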

Additional observations from a re-analysis of the deposited data

Results flagged for a closer look

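In 129 groups of 4 values examined for a value far from the rest, 8 had a gap beyond Dixon's 95% critical value, a rule by which chance marks about 1 group in 20. miR-290, the brightest name, was at 7.20 on Ctrl 1, against 6.92 to 6.95 on the others, a gap small beside its level. miR-150 was at 0.87 on Ctrl 4, against 1.52 to 1.61 on the others. The remaining names were near the array median. miR-363 was at -0.49 on Ctrl 1, against -0.08 to -0.02 on the others. miR-181a*-3p was at -0.50 on Ctrl 4, against 0.10 to 0.21 on the others, and miR-143 was at -0.55 on Ctrl 4, against -0.09 to -0.04 on the others. miR-681 was at -0.69 on Ctrl 2, against -0.13 to -0.06 on the others, and miR-9-2-5p was at -0.90 on Ctrl 2, against -0.08 to 0.02 on the others. The arm difference of miR-9, 5p minus 3p, was -0.65 on Ctrl 2, against 0.03 to 0.12 on the others. No array held more than 3 of the 8.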

How the results depend on the processing

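The count of 101 names above the median was 98 to 105 with the array mode as baseline, quantile normalization, a pseudocount of 1000, the highest probe of a name, an intensity trend in the prior variance, or the filter on names, and 95 to 103 when 1 mouse was left out. With every probe on its own, 126 probes were called. When 1 mouse was left out, miR-341, let-7f-1, let-7f-2, miR-668, miR-146b and miR-99b were lost under at least 2 of the 4 omissions, and miR-341 under all 4. With the limit on size alone, 1 name was below the median instead of 0; no other setting gave one, and the range over the omissions was 0 to 0. The 14 arm pairs became 12 to 14 without 1 mouse and 13 after subtraction of the array mode. Subtracting that mode moved the shares of summed intensity most, to 63.7% for the 20 brightest names, 6.25% for the let-7 family (5.39% as deposited) and 43.1% for the 5 leading seed groups. Without 1 mouse these shares, as deposited, were 46.3% to 48.1%, 5.14% to 5.63% and 32.1% to 33.3%. The median agreement of arrays was 0.930 by Pearson's r and 0.696 by Spearman's rho. Over the named levels under each setting, 1027 values kept their side of the threshold, 10 gained a call, 10 lost it and 20 moved; none changed sign. No paired analysis was possible because 1 group was described and no groups were compared. Signal over background limits all statements on the 332 names not called.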
